A study of Mus musculus with 16 samples.

Results

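The 9 genes described here encode the insulin-like growth factors Igf1 and Igf2, the receptor Igf1r and the binding proteins Igfbp2 to Igfbp7, and they were taken by name from 22238 protein-coding genes. They were followed through 14 peak lists from chromatin immunoprecipitation with sequencing (ChIP-seq) of MC3T3-E1, a cell line of mouse calvarial pre-osteoblasts, with 7 antibodies used on cells in 2 states. The differentiated cells had spent 15 days in medium with ascorbic acid at 50 µg/mL and glycerol-2-phosphate at 10 mM, and their mineralised matrix was removed before chromatin was prepared. The undifferentiated cells had not had that treatment, and both states came from passages 5 to 12 and had received ethanol vehicle for 3 h. All cells are 1 cell line, so nothing here covers another line or bone itself. The antibodies were against the transcription factors RUNX2 and C/EBPβ and 5 histone modifications, which were the acetylations H4K5Ac and H3K9Ac and the methylations H3K4me1, H3K4me3 and H3K36me3. Each list is 1 merged set of replicate overlaps, so no difference between the states below has a replicate spread or a test, and no p-value is given.

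Igf1 and Igf2 are secreted growth factors stored in bone matrix, and both act on osteoblasts through the receptor tyrosine kinase Igf1r. The binding proteins hold the ligands in solution or in matrix and can block or extend their action, and Igfbp7 differs in that it binds them only weakly. RUNX2 is the runt-domain factor that bone formation depends on, and C/EBPβ is a leucine zipper transcription factor. H3K4me3 and H3K9Ac mark active promoters, H3K4me1 and H4K5Ac also cover enhancers, and H3K36me3 is laid down over the bodies of transcribed genes.

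The lists differ in length, which every count below inherits. They held 6272 RUNX2 peaks in differentiated cells and 12674 in undifferentiated cells. For C/EBPβ they held 10847 peaks in differentiated cells and 15622 in undifferentiated cells. The mark lists ran from 8196 to 54403 regions in differentiated cells and from 6920 to 51122 in undifferentiated cells. The number of regions in differentiated over undifferentiated cells was 1.58 for H3K9Ac, 1.18 for H3K4me3 and 1.06 for H3K4me1. It was 0.972 for H3K36me3 and 0.804 for H4K5Ac. Read depth is unknown, since a peak list holds no read counts, and how far depth or enrichment set the length of a list was not tested. The osteoblast label was checked on marker genes. H3K4me3 lay at the promoter of 5 of 10 osteoblast markers in each state, while Alpl, Bglap and Phex, which encode alkaline phosphatase, osteocalcin and a matrix endopeptidase, had neither H3K4me3 nor H3K36me3. None of 6 adipocyte, 6 muscle, 6 endothelial, 6 neural or 6 haematopoietic markers had H3K4me3 at a promoter in either state, and of 6 chondrocyte markers 1 did in each state. H3K36me3 covered 50% or more of the body of 7 osteoblast markers in differentiated cells and 6 in undifferentiated cells, of 1 chondrocyte marker in differentiated cells and 2 in undifferentiated cells, of 1 haematopoietic marker in each state, and of none in the other lists.

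The peak sequences that the binding results turn on are shown here, read from the plus strand of mm9. They are, for each gene that has one, the peak nearest to a transcription start site (TSS) within 1 kb and the nearest peak shared by RUNX2 and C/EBPβ. A farther shared site upstream of Igfbp4 is not printed. Capitals mark the words TGTGGT or TGCGGT, which RUNX proteins bind, on either strand (ACCACA and ACCGCA are their reverse complements). The C/EBP word TTGCNNAA was searched as well and is in none of them, and no 2 matches overlap. Bases of annotated UTRs are left out, so at the Igf1r internal TSS and the Igfbp5 TSS the part of the peak upstream of the TSS is shown.
Igfbp5 4.30 kb upstream of the TSS, intergenic, chr1:72925656-72925856, bound by both factors in both states: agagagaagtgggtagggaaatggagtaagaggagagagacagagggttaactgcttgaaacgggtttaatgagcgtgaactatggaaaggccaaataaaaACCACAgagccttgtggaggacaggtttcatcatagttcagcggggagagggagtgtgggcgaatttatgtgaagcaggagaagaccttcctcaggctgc
Igf2 30.6 kb downstream of the nearest TSS, intergenic, chr7:149812686-149812886, bound by RUNX2 in both states and by C/EBPβ in undifferentiated cells: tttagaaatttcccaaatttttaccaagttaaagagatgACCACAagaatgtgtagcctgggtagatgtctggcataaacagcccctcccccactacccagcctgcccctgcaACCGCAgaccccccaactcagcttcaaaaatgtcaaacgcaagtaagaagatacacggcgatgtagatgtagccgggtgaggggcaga
Igfbp4 coding exon, chr11:98902865-98903065, bound by C/EBPβ in both states and by RUNX2 in undifferentiated cells: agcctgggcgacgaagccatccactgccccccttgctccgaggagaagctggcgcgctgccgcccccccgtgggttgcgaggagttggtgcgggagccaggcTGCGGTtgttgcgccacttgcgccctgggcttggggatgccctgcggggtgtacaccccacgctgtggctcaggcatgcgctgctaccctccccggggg
Igf1r upstream of an internal TSS, chr7:75293363-75293456, bound by C/EBPβ in both states and by RUNX2 in undifferentiated cells: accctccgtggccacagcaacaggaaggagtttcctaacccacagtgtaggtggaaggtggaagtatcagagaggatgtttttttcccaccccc
Igfbp4 intron, 0.063 kb upstream of a non-coding TSS, chr11:98908462-98908662, bound by C/EBPβ in undifferentiated cells: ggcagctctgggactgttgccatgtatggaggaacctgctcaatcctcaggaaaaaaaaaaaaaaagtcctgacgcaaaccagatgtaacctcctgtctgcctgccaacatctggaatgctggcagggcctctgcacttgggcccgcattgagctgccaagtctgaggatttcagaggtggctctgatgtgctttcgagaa
Igfbp5 directly upstream of the TSS, chr1:72921459-72921556, bound by C/EBPβ in differentiated cells: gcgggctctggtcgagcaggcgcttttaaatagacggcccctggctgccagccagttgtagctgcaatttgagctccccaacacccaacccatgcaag
The Igfbp5 upstream element holds 1 RUNX word and the Igf2 element holds 2. The Igfbp4 exon holds 1 in a stretch of 71.6% G and C, and the other 3 hold none.

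The 9 genes had 6 RUNX2 peaks in differentiated cells and 13 in undifferentiated cells, when each peak was counted for whichever gene had the closest TSS, up to 100 kb from the peak centre. An undifferentiated peak that no differentiated peak of the factor overlapped is called lost, and a differentiated one with no undifferentiated overlap is called gained. Peaks were lost at 5 genes, with 4 at Igf1r, 2 each at Igf1 and Igfbp4, and 1 each at Igfbp5 and Igfbp7. Gained peaks numbered 1 each at Igf1, Igf2 and Igfbp2. In differentiated cells 4 of the 9 genes had a RUNX2 peak, against 15% of all genes, and in undifferentiated cells 6 had one, against 27.3% of all genes. RUNX2 peaks were fewer in differentiated cells at 5 genes, Igf1, Igf1r, Igfbp4, Igfbp5 and Igfbp7, where 19.8% of all genes had fewer. They were more at 2 genes, Igf2 and Igfbp2, where 2.92% of all genes had more. Among the 6475 genes with a RUNX2 peak in either state, 68.1% had fewer in differentiated cells and 10.0% had more, so the lower count at 5 of the 7 IGF genes with a peak was the common direction. Within 20 kb of a TSS the net difference was smaller, with 4 peaks in differentiated cells and 6 in undifferentiated cells, and 3 genes had fewer in differentiated cells. That count sets gains against losses. Lost peaks close to a TSS were at Igf1r (1.77 kb and 6 bp away), Igfbp4 (1.18 and 0.421 kb) and Igfbp5 (1.70 kb). The gained peaks were within 20 kb too, at 3.25 kb for Igf1, 10.6 kb for Igf2 and 8.99 kb for Igfbp2.

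**Figure D1:**
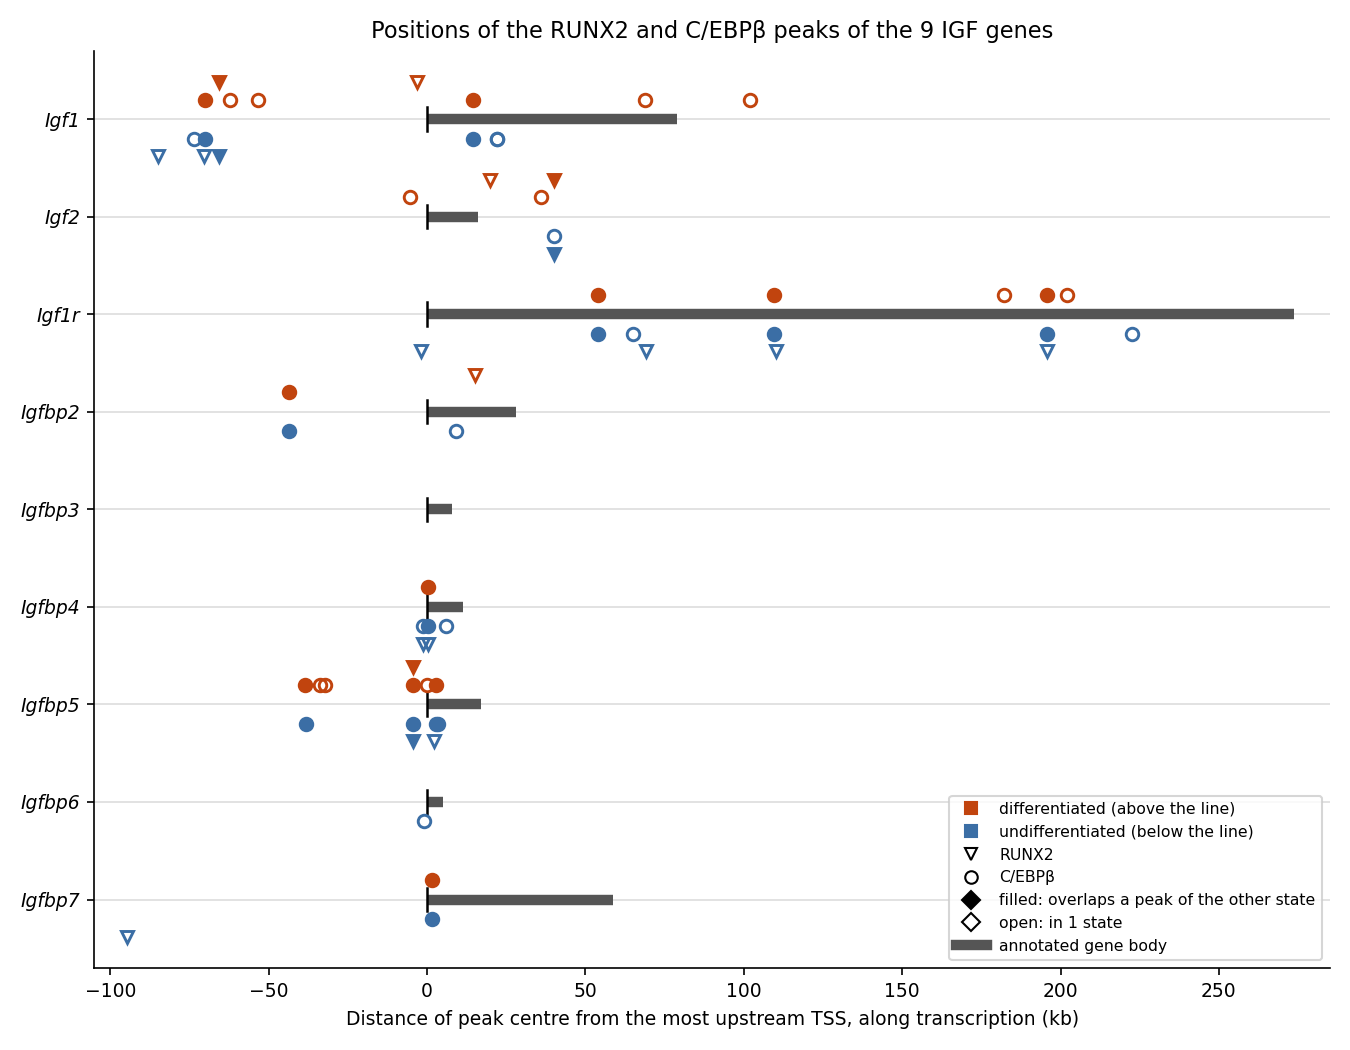
Each row is a gene, with peak centres by distance from its most upstream TSS along transcription (kb), differentiated cells above the line and undifferentiated cells below it, RUNX2 as triangles and C/EBPβ as circles. Filled symbols overlap a peak of the same factor in the other state, and the grey bar is the gene body. Igf1r has 4 RUNX2 triangles below its line and none above it, while Igfbp3 has no symbol at all.

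C/EBPβ peaks over the same genes were as many in one state as in the other. They numbered 22 in differentiated cells and 22 in undifferentiated cells, although the whole C/EBPβ list was shorter in differentiated cells, at 0.694 times the undifferentiated length. A C/EBPβ peak was found at 7 of the 9 genes in differentiated cells, against 21.8% of all genes, and at 8 in undifferentiated cells, against 27.7%. Igfbp2, Igfbp4 and Igfbp6 had fewer peaks in differentiated cells (3 of 9 genes, against 16.1% of all genes). Igf1, Igf2 and Igfbp5 had more (3 of 9, against 6.15%), and Igf1r, Igfbp3 and Igfbp7 had equal numbers. Most genes have no C/EBPβ peak in either state and cannot change. Among the 6946 genes with one in either state, 51.6% had fewer in differentiated cells and 19.7% had more. By gene bodies with 10 kb on each side the totals were 14 in differentiated cells and 20 in undifferentiated cells, and 6 genes had fewer in differentiated cells. The equal totals by nearest TSS did not come from the same sites. Of the 22 undifferentiated C/EBPβ peaks, 11 overlapped a differentiated one (50.0%, Clopper-Pearson 95% interval 28.2 to 71.8%), beside 43.1% of the whole list. Of the 13 undifferentiated RUNX2 peaks, 3 overlapped a differentiated one (23.1%, 5.04 to 53.8%), beside 36.4% of the whole list. These intervals cover counting error only, and peaks of 1 gene are not independent.

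**Figure D2:**
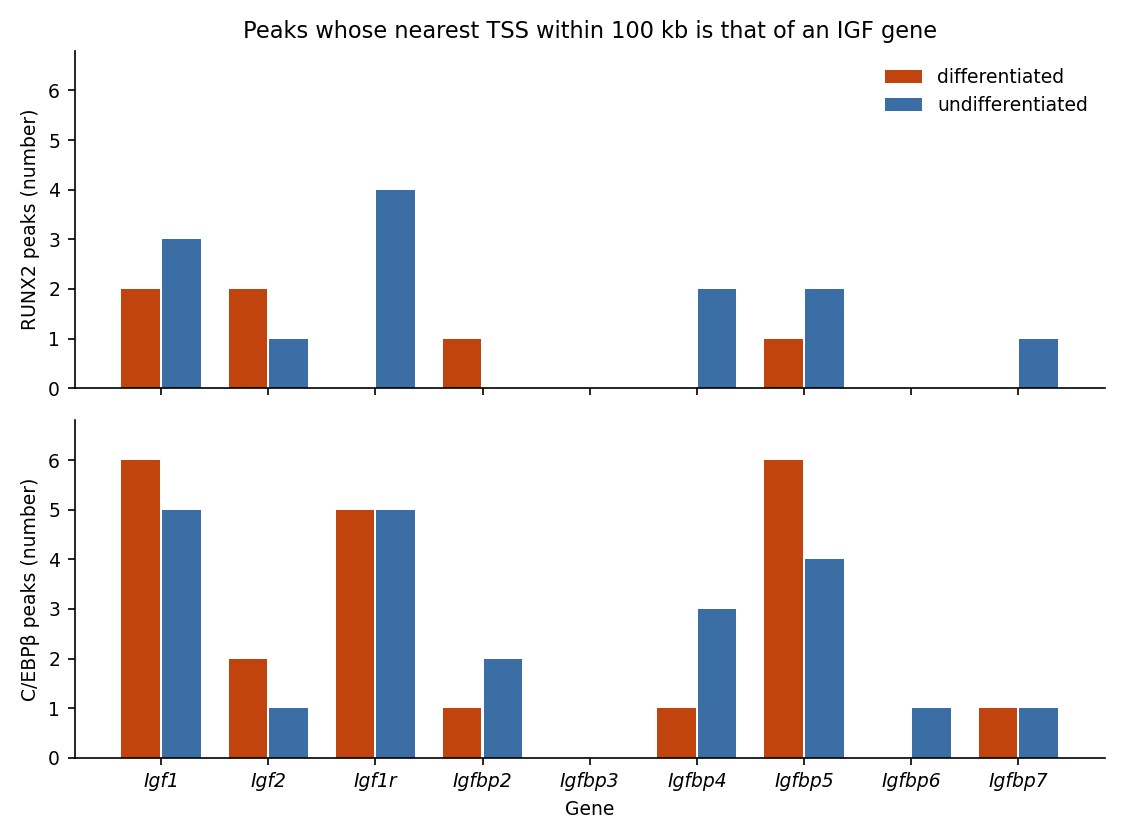
Bars give the number of RUNX2 peaks (top) and C/EBPβ peaks (bottom) at each gene, with differentiated cells left and undifferentiated cells right. Igf1r has 0 RUNX2 peaks in differentiated cells and 4 in undifferentiated cells beside 5 C/EBPβ peaks in each state, and Igfbp5 has 6 C/EBPβ peaks in differentiated cells and 4 in undifferentiated cells.

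Counts by nearest TSS depend on how much sequence a gene has around it. The stretch nearest to a TSS of the gene had a median of 93.6 kb over the 9 genes, with a range of 7.15 kb at Igfbp6 to 350.1 kb at Igf1r, against a median of 45.7 kb over all genes. Per Mb of such sequence the 9 genes held 5.53 RUNX2 peaks in differentiated cells and 12.0 in undifferentiated cells, against 3.20 in differentiated and 6.61 in undifferentiated cells over all genes. For C/EBPβ they held 20.3 per Mb in each state, against 5.39 in differentiated and 7.74 in undifferentiated cells over all genes.

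Igf1, on chr10:87321010-87399792, had 2 RUNX2 peaks in differentiated cells and 3 in undifferentiated cells, with 6 C/EBPβ peaks in differentiated cells and 5 in undifferentiated cells. Its binding was mainly distal. A RUNX2 peak 65.8 kb upstream was found in both states, and 2 more at 70.5 and 84.9 kb upstream were found in undifferentiated cells. The peak at chr10:87317661-87317861, 3.25 kb upstream of the TSS, was in the differentiated list alone, and it held 1 RUNX word. That peak lay inside an H3K9Ac region in differentiated cells and outside one in undifferentiated cells, while for H3K4me3 the order was the opposite. C/EBPβ was on a site 70.2 kb upstream and on an intronic one 11.3 kb downstream of the nearest TSS in differentiated cells, and peaks overlapping both were in the undifferentiated list. Since the lost RUNX2 peaks of Igf1 lie beyond 50 kb, the gene had 1 RUNX2 peak more in differentiated cells when the distance was limited to 20 or 50 kb, and for C/EBPβ the direction also turned, to 2 fewer.

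Igf2, on chr7:149836673-149852721, is the imprinted fetal growth factor gene next to the non-coding gene H19. It had 2 RUNX2 peaks in differentiated cells and 1 in undifferentiated cells, and C/EBPβ had 2 in differentiated cells and 1 in undifferentiated cells as well. All but 1 of these 6 peaks lay downstream, between Igf2 and H19, and their centres were nearer to a TSS of Igf2. The element printed above was 30.6 kb from the Igf2 TSS and 48.7 kb from that of H19. RUNX2 was on it in both states and C/EBPβ in undifferentiated cells. The second differentiated RUNX2 peak was 10.6 kb downstream and held 1 RUNX word. A differentiated C/EBPβ peak 5.53 kb upstream of the TSS was the exception on the other side of the gene.

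Igf1r, on chr7:75097713-75371484, had no RUNX2 peak in differentiated cells and 4 in undifferentiated cells. It was the largest loss among the 9 genes under this assignment. The 4 peaks lay 1.77 kb upstream of the first TSS, in introns at 69.2 and 85.6 kb from the nearest TSS, and 6 bp from an internal TSS. This internal TSS starts a short protein-coding transcript 195.7 kb into the gene. C/EBPβ had 5 peaks in each state by nearest TSS. A further undifferentiated one in the gene body, at chr7:75362499-75362699, was counted for the neighbour Pgpep1l. Of the 5 in each state 3 overlapped between states, among them the one at the internal TSS. There the C/EBPβ centre was 0.095 kb upstream in differentiated cells and 0.115 kb upstream in undifferentiated cells. The internal TSS lay inside H4K5Ac, H3K9Ac and H3K4me1 regions in both states and outside H3K4me3 in both. Whether these marks or the C/EBPβ peak depend on RUNX2 was not tested.

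Among the binding proteins, Igfbp5 had the most factor peaks. The gene, on chr1:72904506-72921458, encodes a binding protein that is abundant in bone matrix. RUNX2 had 1 peak in differentiated cells and 2 in undifferentiated cells. C/EBPβ had 6 in differentiated cells and 4 in undifferentiated cells. The element 4.30 kb upstream was the single site of the 9 genes with overlapping peaks of both factors in both states. All 4 centres fell between 4.30 and 4.32 kb upstream. It lay inside H4K5Ac, H3K9Ac and H3K4me1 regions in both states, and inside H3K4me3 in undifferentiated cells alone. C/EBPβ peaks in the differentiated list alone lay 2 bp from the TSS and 32.1 and 33.9 kb upstream. The distal pair lay in H3K4me1 of differentiated cells and outside it in undifferentiated cells. An intronic RUNX2 peak 1.70 kb downstream was in the undifferentiated list alone, as was an intronic C/EBPβ peak 2.99 kb downstream. The difference in C/EBPβ peaks between the states was 0 within 20 kb of a TSS and 0 in the gene body plus 10 kb.

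Igfbp2, on chr1:72871077-72899048, is the convergent neighbour of Igfbp5. It had 1 RUNX2 peak in differentiated cells and 0 in undifferentiated cells, an intronic peak at chr1:72886179-72886379 with 1 RUNX word. For C/EBPβ it had 1 peak in differentiated cells and 2 in undifferentiated cells. The one 43.5 kb upstream was found in both states, and the intronic one 8.33 kb downstream of a TSS was lost. The nearest TSS to the RUNX2 peak was that of a retained-intron transcript.

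**Figure D3:**
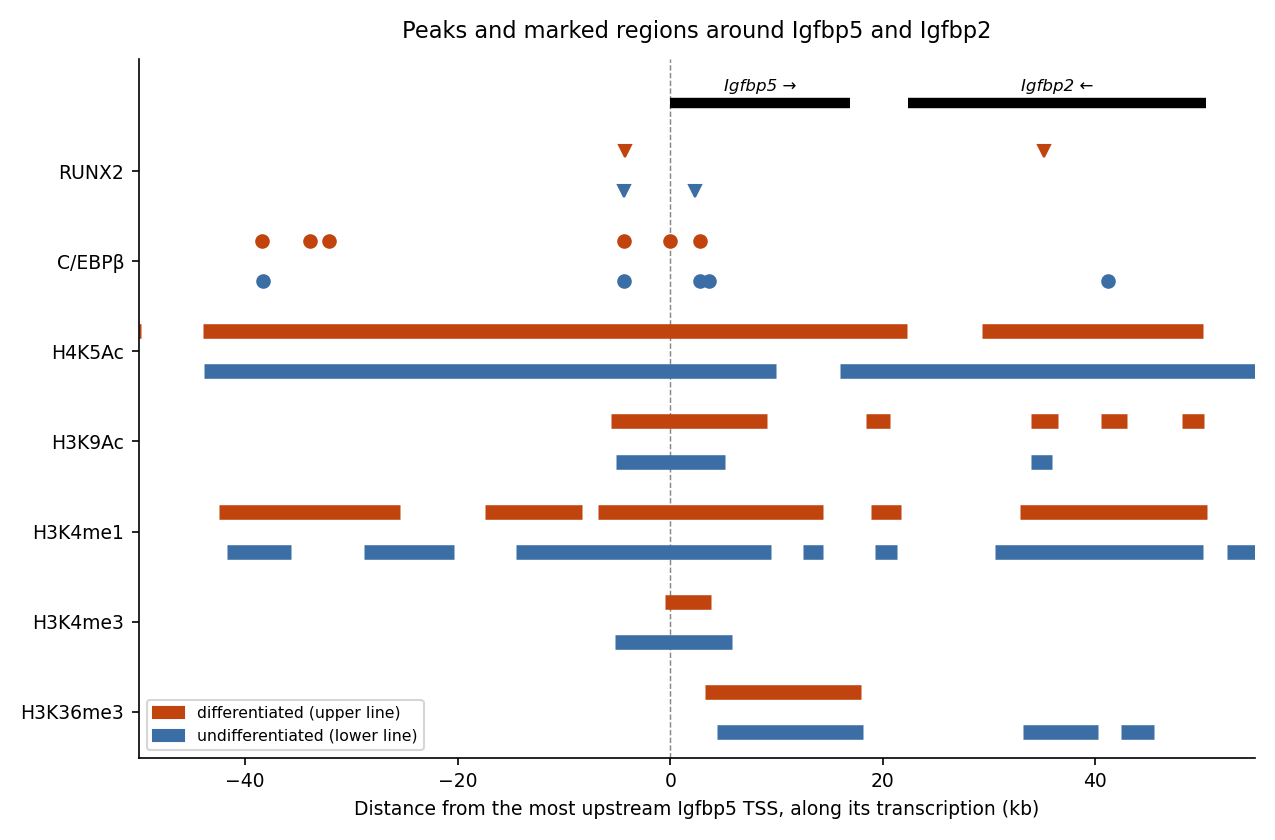
Rows are the 7 antibodies, each with differentiated cells on the upper line and undifferentiated cells on the lower line, and the x axis is the distance from the most upstream Igfbp5 TSS along its transcription (kb). Triangles and circles are RUNX2 and C/EBPβ peaks, and bars are marked regions. Both factors share a site about 4.30 kb upstream in both states, the H3K4me3 bar is shorter in differentiated cells (4.28 kb, against 11.0 kb in undifferentiated cells), and the H3K36me3 bars over Igfbp2 appear in undifferentiated cells alone.

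Igfbp4, on chr11:98902558-98913969, encodes a binding protein known to inhibit IGF action in bone cells. Its RUNX2 peaks numbered 0 in differentiated cells and 2 in undifferentiated cells, and its C/EBPβ peaks 1 in differentiated cells and 3 in undifferentiated cells. In undifferentiated cells both factors lay at 2 common places, 1.18 kb upstream and 421 bp downstream of the TSS by the RUNX2 centres. In differentiated cells the C/EBPβ peak in the coding exon, 417 bp downstream, was what remained. The third undifferentiated C/EBPβ peak was the one 0.063 kb upstream of an internal non-coding TSS. Both RUNX2 peaks each held 1 RUNX word.

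The other 3 binding protein genes had few peaks. Igfbp7, on chr5:77778265-77837070, had 0 RUNX2 peaks in differentiated cells and 1 in undifferentiated cells, 94.8 kb upstream, and it had an intronic C/EBPβ peak 1.60 kb downstream in both states. A RUNX2 peak of each state inside the Igfbp7 body was counted for the neighbour Polr2b, whose TSS was 27534 bp away in differentiated cells. An undifferentiated C/EBPβ peak inside the body, at chr5:77786974-77787174, was counted for Polr2b as well. Igfbp6, on chr15:101974793-101979942, had no RUNX2 peak in either state by nearest TSS, and 0 C/EBPβ peaks in differentiated cells against 1 in undifferentiated cells, 1.04 kb upstream. A differentiated RUNX2 peak inside its body, at chr15:101978229-101978429, was counted for Soat2, whose TSS was 2628 bp away. Igfbp3, on chr11:7106089-7113926, which encodes the main carrier of IGFs in serum, had no peak of either factor in either state, although 108.1 kb of sequence was nearest to its TSSs.

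The sites bound by both factors in undifferentiated cells had 4 different outcomes. There were 5 of them at 4 genes, which is 5 of 13 RUNX2 peaks (38.5%, Clopper-Pearson 95% interval 13.9 to 68.4%), beside 31.1% of the whole undifferentiated RUNX2 list. At Igfbp5 both factors were also listed in differentiated cells. At Igf2 RUNX2 was and C/EBPβ was not. At the Igf1r internal TSS and the Igfbp4 exon C/EBPβ was and RUNX2 was not. At the upstream Igfbp4 site neither was. In differentiated cells 1 of 6 RUNX2 peaks overlapped a C/EBPβ peak, beside 22.2% of the whole list.

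Nearly all peaks lay in acetylated, H3K4me1-marked chromatin, as did the whole lists. All 6 differentiated RUNX2 peaks lay in H4K5Ac of differentiated cells, beside 94.8% of the whole list, and all 6 in H3K4me1, beside 98.4%. Of the 22 differentiated C/EBPβ peaks 21 lay in H4K5Ac of the same cells, beside 82.4% of the list, and 21 in H3K4me1, beside 92.4%. H3K9Ac of differentiated cells covered 5 of the 6 differentiated RUNX2 peaks, beside 75.0% of the list, and 10 of the 22 differentiated C/EBPβ peaks, beside 50.5%. Few were promoter peaks. Of the differentiated RUNX2 peaks 0 of 6 lay within 1 kb of a TSS, beside 18.6% of the whole list, and of the undifferentiated ones 2 of 13 did, beside 26.0%. For 0 of 6 the upper Clopper-Pearson bound is 45.9%. Of the C/EBPβ peaks 3 of 22 lay within 1 kb of a TSS in each state. The whole lists had 12.7% there in differentiated cells and 14.7% in undifferentiated cells, so C/EBPβ was near its list share.

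RUNX words were in 6 of 6 differentiated RUNX2 peaks of the 9 genes, beside 71.1% of the whole list, and in 11 of 13 undifferentiated ones, beside 61.7%. Windows of the same length 1 kb to the right of every RUNX2 peak held a word in 17.1% for the differentiated list and 16.6% for the undifferentiated one. The C/EBP word was in 13 of 22 differentiated C/EBPβ peaks, beside 44.8% of the whole list, and in 11 of 22 undifferentiated ones, beside 41.1%. Its share in the windows beside them was 8.14% for the differentiated list and 8.55% for the undifferentiated one. A word is a match of letters and no proof of a site.

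At the promoters, defined as within 1 kb of any annotated TSS, the 9 genes carried much the same marks in both states. H4K5Ac was at 8 of the 9 genes in differentiated cells (54.3% of all genes) and at 8 in undifferentiated cells (55.5%). H3K9Ac was at 7 in differentiated cells (52.5%) and at 6 in undifferentiated cells (49.2%), and the added gene was Igfbp2. H3K4me1 was at 7 in differentiated cells (59%) and at 7 in undifferentiated cells (57.1%). H3K4me3 was at 5 in differentiated cells (40.1%), which were Igf1, Igf1r, Igfbp4, Igfbp5 and Igfbp6, and at 4 in undifferentiated cells (34.9%), without Igfbp6. The Igfbp6 region was 2.37 kb wide and low in its list, at the 15.9th percentile of the authors' score. It was not there when the lowest 25% of regions by score were dropped. Igfbp3 had none of the 4 marks, and Igf2 had H4K5Ac alone, at its most upstream TSS. At Igf1r H3K4me1 lay at the internal TSS and covered 0 bp around the first one.

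**Figure D4:**
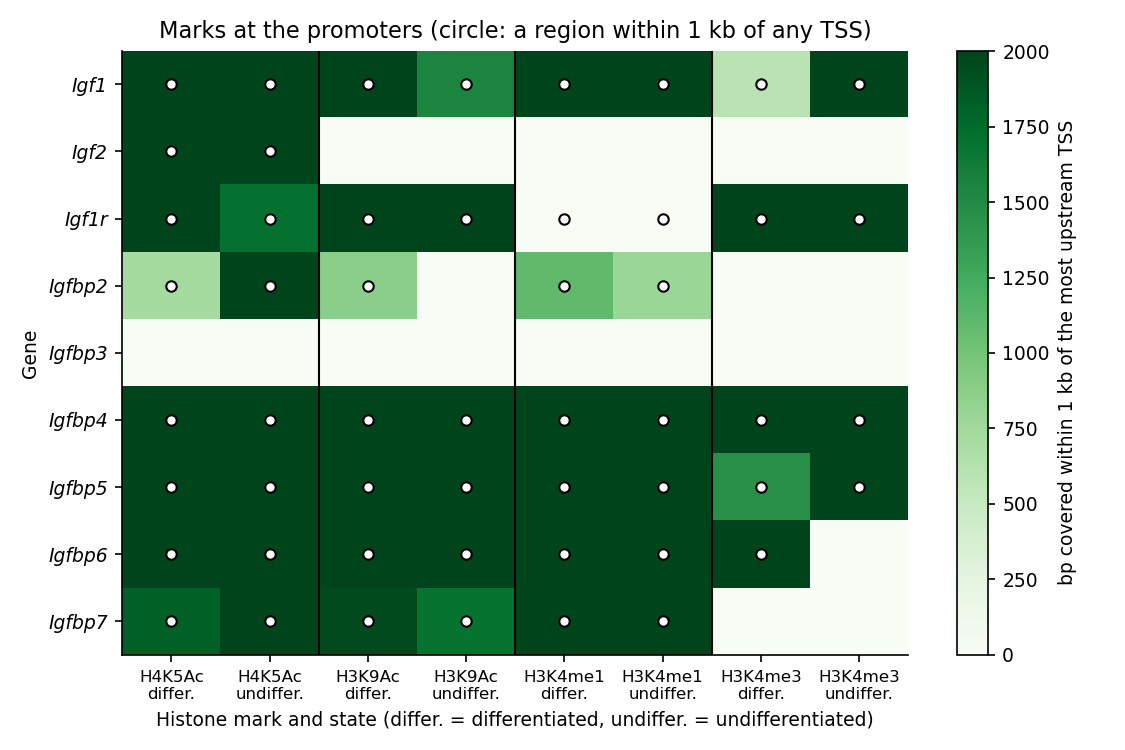
Rows are the 9 genes and columns the 4 marks, differentiated left of undifferentiated for each. Colour gives the bp covered in the 2001 bp around the most upstream TSS and a circle marks a region within 1 kb of any TSS. Igfbp3 is empty in all columns, and H3K4me3 covers 587 bp at Igf1 in differentiated cells against 2001 bp in undifferentiated cells.

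The H3K4me3 regions at the IGF promoters were narrower in differentiated cells. At Igf1 the region was 3.23 kb wide in differentiated cells and 12.8 kb in undifferentiated cells. At Igf1r it was 4.90 kb in differentiated cells against 8.10 kb in undifferentiated cells, and at Igfbp4 4.04 kb in differentiated cells against 8.62 kb in undifferentiated cells. At Igfbp5 it was 4.28 kb in differentiated cells against 11.0 kb in undifferentiated cells. All 4 genes marked in both states had the narrower region in differentiated cells, with a median width ratio of 0.428 of differentiated over undifferentiated. Narrower did not mean lower in the list by the authors' score. The score percentile at Igf1 was 86.8 in differentiated and 69.6 in undifferentiated cells, and at Igf1r 95.3 and 91.7. At Igfbp4 it was 97.7 in differentiated and 93.4 in undifferentiated cells, and at Igfbp5 71.2 and 28.2. Among the 7446 genes marked in both states 60.9% were narrower and the median ratio was 0.907. H3K9Ac showed the opposite direction, since all 6 IGF genes marked in both states had a wider region in differentiated cells, with a median ratio of 1.32. That was also the common direction, at 85.8% of 10915 genes with a median ratio of 1.15. The largest ratios were at Igfbp4, 9.85 kb in differentiated cells against 5.00 kb in undifferentiated cells, and at Igf1, 10.7 kb in differentiated cells against 6.81 kb in undifferentiated cells.

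Over each gene body with 10 kb on either side, a difference of 10 percentage points in cover was called. H4K5Ac cover was higher in differentiated cells at 1 gene, where 3.21% of all genes were higher, and lower at 4 genes, where 13.9% were lower. The higher one was Igfbp6, with 79.4% in differentiated and 65.2% in undifferentiated cells. Its window of 25.15 kb also held TSSs of both neighbours, Spryd3 at 8.13 kb and Soat2 at 6.16 kb from the Igfbp6 TSS. By nearest TSS, Igfbp6 had 0 H4K5Ac regions in differentiated cells and 1 in undifferentiated cells. Lower were Igf1, Igf1r, Igfbp2 and Igfbp7. The largest of these differences were at Igfbp2, 63.9% in differentiated cells against 87.1% in undifferentiated cells, and at Igfbp7, 34.1% in differentiated cells against 56.4% in undifferentiated cells. H3K9Ac cover was higher at 2 genes (7.53% of all genes) and lower at 0 (0.0989%). The 2 were the neighbours Igfbp2, with 19.8% in differentiated and 4.12% in undifferentiated cells, and Igfbp5, with 45.8% in differentiated and 27.9% in undifferentiated cells.

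H3K4me1 cover was higher at 1 gene (6.49% of all genes) and lower at 2 (5.51%). At Igfbp4 it was 63.3% in differentiated cells and 33.3% in undifferentiated cells, the largest increase of the 4 marks over these loci. It was lower at Igf2, with 11.2% in differentiated and 22.2% in undifferentiated cells, and at Igfbp7, with 46.6% in differentiated and 58.4% in undifferentiated cells. H3K4me3 cover was higher at 0 genes (0.832% of all genes) and lower at 2 (3.27%), which were Igfbp4, with 12.9% in differentiated and 27.4% in undifferentiated cells, and Igfbp5, with 11.6% in differentiated and 29.9% in undifferentiated cells. Igfbp3 had no H4K5Ac, H3K9Ac or H3K4me3 anywhere in its window, and its one marked stretch was 2.44 kb of H3K4me1 in differentiated cells.

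H3K36me3 divided the 9 genes more by gene than by state. Igf1 was covered over 97.0% of its body in differentiated cells and 97.7% in undifferentiated cells, and Igfbp4 over 98.2% in differentiated and 94.8% in undifferentiated cells. Igfbp5 had 80.5% in differentiated and 74.1% in undifferentiated cells, and Igfbp6 had 48.1% in differentiated and 40.3% in undifferentiated cells. Igfbp7 had 7.09% in differentiated and 15.8% in undifferentiated cells. Its differentiated cover came from 1 region of 42.1 kb that lay mostly outside the gene and left the 50% nearest the 5′ end uncovered. Igf2 and Igfbp3 had none in either state. The median over the 9 genes was 48.1% in differentiated and 40.3% in undifferentiated cells, against 0.439% in differentiated and 1.26% in undifferentiated cells over all genes. Both medians were the values of Igfbp6, which had 0% over the 50% nearest the 5′ end in each state. Its undifferentiated region was 13.7 kb wide, more than the 5.15 kb gene. By nearest TSS no H3K36me3 region was counted for Igfbp6 in either state. Over the 50% of each body nearest the 3′ end the order of the medians turned, with 63.6% in differentiated and 80.6% in undifferentiated cells. There the differentiated median was the value of Igf1r and the undifferentiated one that of Igfbp6. Over whole gene bodies no IGF gene was higher by 10 points or more in differentiated cells, where 5.13% of all genes were, and 2 were lower, where 4.71% were. Over the 50% nearest the 3′ end Igfbp6 was past that limit, with 96.3% in differentiated and 80.6% in undifferentiated cells. Igf1r, which had no RUNX2 peak in differentiated cells, had 63.2% in differentiated cells and 76.8% in undifferentiated cells. Igfbp2, which had its one RUNX2 peak in differentiated cells, had 0% in differentiated cells and 36.5% in undifferentiated cells. The Igfbp2 value rests on regions of low score, the wider at the 20.4th percentile of its list, and without the lowest 25% of regions it was 0% in both states.

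**Figure D5:**
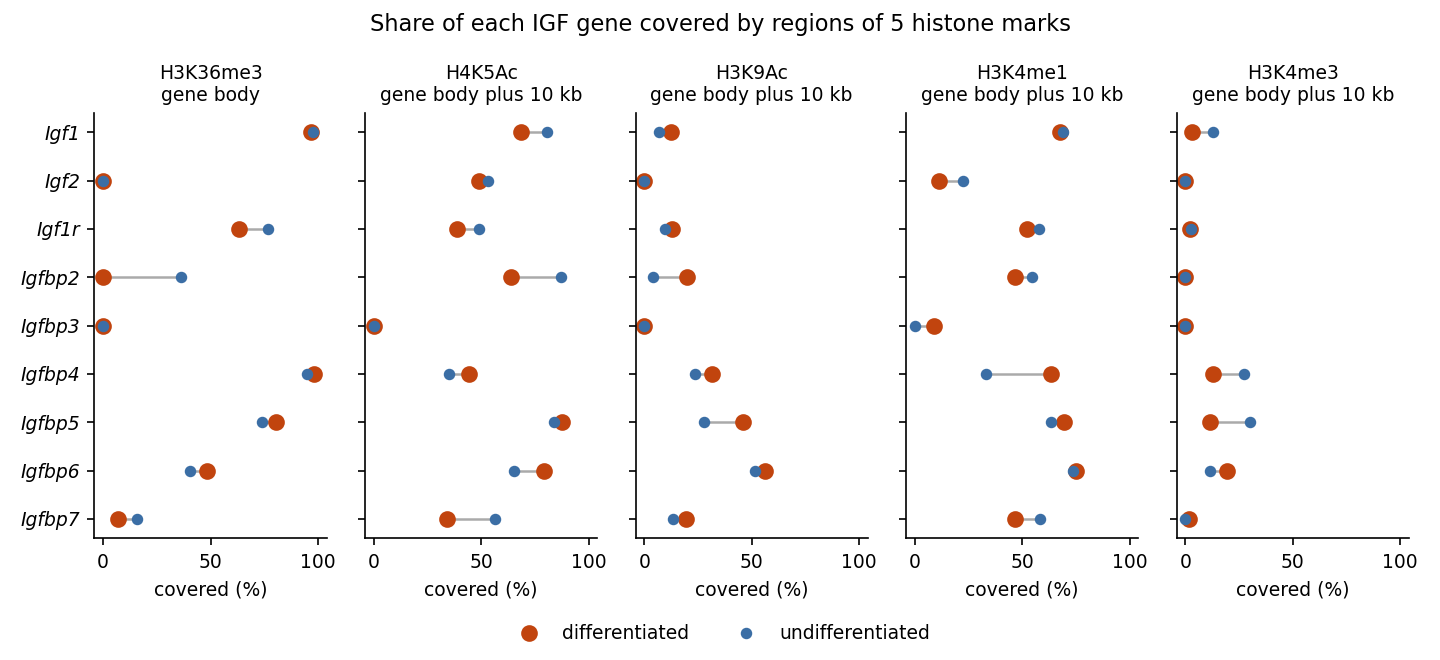
Points give the percentage of each gene covered by regions of a mark, large points for differentiated and small ones for undifferentiated cells. The first panel is H3K36me3 over the gene body and the others are the gene body plus 10 kb on each side. Igfbp4 has more H3K4me1 cover in differentiated cells (63.3%, against 33.3% in undifferentiated cells), and Igfbp2 has less H4K5Ac (63.9%, against 87.1% in undifferentiated cells).

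Igf2 and Igfbp3, the genes without H3K36me3, were not alike in their other marks. Both lacked H3K4me3 and H3K9Ac at the promoter in both states, but Igf2 had H4K5Ac over 49.1% of its window in differentiated cells and 53.3% in undifferentiated cells and factor peaks downstream, where Igfbp3 had neither. Igf1, Igf1r, Igfbp4 and Igfbp5 carried all 4 promoter marks and H3K36me3 in both states, with H3K4me1 of Igf1r at the internal TSS. Igfbp6 carried all 4 in differentiated cells.

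Other genes of the pathway were read from a list of 34. They had 36 RUNX2 peaks in differentiated cells and 44 in undifferentiated cells, with fewer in differentiated cells at 13 genes, against 19.8% of all genes, and more at 4, against 2.92%. C/EBPβ peaks numbered 57 in differentiated cells and 79 in undifferentiated cells, with fewer in differentiated cells at 13 genes, against 16.1% of all genes, and more at 5, against 6.15%. Genes without a peak in either state cannot change. Of the 34, 15 had a RUNX2 peak in differentiated cells and 18 in undifferentiated cells. A C/EBPβ peak was at 19 in differentiated cells and 22 in undifferentiated cells. Outside this list, of all 6475 genes with a RUNX2 peak in either state, 68.1% had fewer in differentiated cells and 10.0% more. Of all 6946 genes with a C/EBPβ peak in either state, 51.6% had fewer and 19.7% more. The highest RUNX2 counts were at 3 genes. Pappa2, a protease that cleaves binding proteins, had 9 RUNX2 peaks in differentiated cells and 10 in undifferentiated cells. Igf2r, the receptor that clears Igf2, had 7 in differentiated and 6 in undifferentiated cells, and the adapter gene Grb10 had 5 in differentiated and 6 in undifferentiated cells. The secreted protease gene Htra1 had 2 in differentiated and 3 in undifferentiated cells, and the metalloprotease gene Adam12 had 1 in each state. The insulin receptor gene Insr had 0 in differentiated and 1 in undifferentiated cells.

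Irs1, an adapter of the receptor, and the kinase pathway genes Akt2 and Pik3r1 each had 1 RUNX2 peak in differentiated cells and 2 in undifferentiated cells. The adapter gene Grb2 had 1 in each state and the transcription factor gene Foxo1 had 2 in each state. Of the RNA-binding proteins of Igf2 mRNA, Igf2bp1 had 1 in differentiated and 0 in undifferentiated cells, while Igf2bp2 and Igf2bp3 each had 0 in differentiated and 1 in undifferentiated cells. H3K4me3 was at the promoter of 25 of the 34 genes in differentiated cells, against 40.1% of all genes, and of 21 in undifferentiated cells, against 34.9%. Their median H3K36me3 cover was 85.7% in differentiated and 81.7% in undifferentiated cells, higher in differentiated cells by 10 points or more at 4 genes, against 5.13% of all genes, and lower at 1, against 4.71%. The largest increase was at Htra1, with 85.7% in differentiated and 0% in undifferentiated cells.

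By percentile rank, some other genes had profiles much like those of the 3 IGF genes with most factor peaks. Likeness was the mean absolute difference in percentile rank over 14 measures, which were the peak counts, the promoter marks and H3K36me3 in both states. Most like Igf1 were Fbln2 at 2.15, Mcm3 at 2.15 and Dut at 2.68 percentile points. Close ranks did not mean equal counts. In differentiated and undifferentiated cells Igf1 had 2 and 3 RUNX2 peaks. Fbln2 had 2 and 3, Mcm3 had 1 and 3, and Dut had 7 and 4. The C/EBPβ counts were 6 and 5 at Igf1, 3 and 1 at Fbln2, 3 and 4 at Mcm3, and 11 and 10 at Dut. Most like Igf1r were 4933436C20Rik at 5.76, Dyrk1a at 6.28 and Tead1 at 6.36. Most like Igfbp5 were Spsb2 at 1.55, Dennd1b at 1.59 and Mical2 at 1.63. The nearest genes were farther from Igf1r than from the other 2. Like Igf1r, all 3 of its nearest genes had no RUNX2 peak in differentiated cells and 1 to 5 in undifferentiated cells. RUNX2 counts are among the 14 measures, so this likeness follows from how the genes were picked.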

How the data were processed

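Chromatin of MC3T3-E1 cells was immunoprecipitated with 7 antibodies in 2 states, and 14 of the 16 samples, all but the inputs, have a peak list used here. The submitters' processing notes name Bowtie, HOMER and the build mm9, and tool versions and thresholds were not given in the sources used here. Each list holds overlaps of biological replicates, per the labels, and region names show 2 or more merged peaks for all regions. The deposited score of each region is the authors' own value, is 0 for every factor peak, and was used only to rank mark regions within their list. The state of the differentiated H3K36me3 sample was taken from its title because its treatment label is garbled, and H4K5Ac is the antibody label's name for a mark that the labels' protocol calls H3K5Ac, so the sources conflict on the histone.

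Peaks were compared with GENCODE vM1 (22238 protein-coding symbols, 70021 TSSs) and the NCBIM37 sequence, which is mm9, with Python 3.11.15 and NumPy 2.4.6. One undifferentiated RUNX2 peak starting before its chromosome was clipped. Peaks were counted for the gene of the closest TSS, at most 100 kb from the peak centre. The least overlap was 1 bp, a promoter reached 1 kb to each side of a TSS, and a difference in cover was called at 10 percentage points. Assignment to the nearest TSS, gene body cover and the overlap rules were tested on simulated peaks, and the search for RUNX words on short made-up sequences. The other steps were not tested in this way. With 1 list for each antibody and state there was no replicate spread and no test. The 9 genes and all lists were chosen with earlier results of these data known. All 9 genes were named. From 5 groups of pathway genes the text names at most 3 each, those with most RUNX2 peaks over both states, ties by name, plus Htra1's cover. The alternatives varied distance, assignment, merging, overlap, promoter width, score and gene model. Assignment to TSSs of protein-coding transcripts and other settings for cover over loci were chosen after seeing the data.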

Additional observations from a re-analysis of the deposited data

How the results depend on the processing

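The 32 counts of promoter marks and the 4 counts of kept peaks recomputed under other settings each stayed within 1.5 times the reported count. The undifferentiated RUNX2 total did not. Within 20 kb of a TSS the undifferentiated total was 6 and within 50 kb it was 7, in place of 13, and the genes with fewer RUNX2 peaks in differentiated cells numbered 3 within 20 kb, 3 within 50 kb and 3 in gene bodies plus 10 kb, in place of 5. For C/EBPβ the totals within 20 kb were 10 in differentiated and 13 in undifferentiated cells, the differentiated total in gene bodies plus 10 kb was 14, all in place of 22, and 6 genes in place of 3 had fewer peaks by that rule. Igf1 reversed: its RUNX2 difference of -1 became 1 within 20 kb, 1 within 50 kb and 1 in the gene body plus 10 kb, and its C/EBPβ difference of 1 became -2, -2 and -1. A shorter distance leaves out distal peaks by construction. In the 50% of the gene body nearest the 3′ end median H3K36me3 cover was 63.6% in differentiated and 80.6% in undifferentiated cells, so the order of the medians turned. A median of 9 genes is the value of 1 gene, and that gene changed. It was Igfbp6 in both states over whole bodies, and over the 3′ stretch Igf1r in differentiated and Igfbp6 in undifferentiated cells. For gene bodies without flanks, median H4K5Ac cover was 74.2% in differentiated and 71.2% in undifferentiated cells, also in the other order than with flanks (49.1 and 56.4%), and median H3K4me1 cover was 62.4% in differentiated and 70.2% in undifferentiated cells. The H3K4me3 medians turned too, with 2.22% in differentiated and 2.76% in undifferentiated cells with flanks, 2.41% in differentiated and 0% in undifferentiated cells without them, and 1.67% in differentiated and 0% in undifferentiated cells without the lowest 25% of regions by score. For single genes, the H3K36me3 difference of Igfbp7, -8.69 points, was 0.418 over the 50% nearest the 3′ end and 0.209 without the lowest 25% of regions, and that of Igfbp6, 7.84 points, was 15.7 over that 3′ stretch. No paired analysis was possible because each antibody and state has 1 merged list with no replicate columns. A stricter score threshold was not run for the factors, whose scores are all 0. Depth is unknown, so a peak missing from a list may be below its threshold.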
